A study of Mus musculus with 12 samples.

Results

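The 8 genes Fabp1, Fabp2, Cd36, Slc27a4, Acsl5, Mogat2, Dgat1 and Dgat2 carry dietary fatty acids through the enterocyte, from uptake and binding to the synthesis of triglyceride. They were named by symbol, with earlier results of these data known but by a rule that uses no measured value, and make up 8 of the 19012 gene symbols in the deposited tables. Each has 1 transcript there, so that no choice between transcripts was needed. Poly(A) RNA was sequenced in 12 libraries of mouse small intestine, from 3 tissues (crypts, villi and organoids) at 3 origins (duodenum, jejunum and ileum). Crypts, the pits that hold the dividing stem cells and the Paneth cells, and villi, the fingers covered by mature absorptive cells, were taken fresh. Organoids are epithelial cultures grown from crypts without the tissue under the epithelium, here kept in culture for 12 weeks. There were 2 crypt libraries, 1 organoid library and 1 villus library per origin. The labels name no strain, age, genotype or treatment, and they do not say that the libraries come from separate animals, so p-values measure only the spread between these libraries, which may be technical.

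Fat reaches the enterocyte as fatty acids and monoglyceride, released from dietary triglyceride by pancreatic lipase. Inside the cell, fatty acids are bound by small cytosolic carriers and activated to acyl-CoA. Monoglyceride is then acylated to diglyceride and to triglyceride at the endoplasmic reticulum, and the triglyceride is packed with apolipoproteins into chylomicrons for the lymph or stored in droplets.

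The sequence before the start site is shown for Fabp1 and Fabp2, the abundant carriers. From duodenum to ileum their levels went apart in crypts and villi, whereas in organoids both were lower in ileum. Both are the 250 bases upstream of the RefSeq start site in build GRCm38.p6, forward strand, at chr6:71199629-71199878 for Fabp1 and chr3:122894822-122895071 for Fabp2.
Fabp1: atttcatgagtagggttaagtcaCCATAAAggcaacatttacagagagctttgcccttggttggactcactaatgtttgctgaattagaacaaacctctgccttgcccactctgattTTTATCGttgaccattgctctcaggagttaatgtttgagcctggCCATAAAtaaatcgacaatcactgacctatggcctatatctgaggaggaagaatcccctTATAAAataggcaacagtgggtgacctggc
Fabp2: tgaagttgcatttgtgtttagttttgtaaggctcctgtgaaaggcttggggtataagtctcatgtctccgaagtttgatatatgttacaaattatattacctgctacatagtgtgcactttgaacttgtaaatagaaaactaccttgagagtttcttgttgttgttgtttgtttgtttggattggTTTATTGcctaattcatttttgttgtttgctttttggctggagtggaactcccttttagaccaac
Capitals mark matches, on either strand, to TTTATNG, the letters bound by the intestinal homeodomain factors Cdx1 and Cdx2, or to TATAAA, the TATA box. No 2 of these matches overlap.

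Fabp1 holds TTTATNG 3 times, beginning at positions -227, -133 and -89 from the start site, and TATAAA at -30. Fabp2 holds TTTATNG at -65. RefSeq promoter windows, which run from 250 bases before to 50 bases after the start, were at hand for 5 of the 8 genes, and those of Cd36, Slc27a4 and Acsl5 held neither motif. Among all 32851 windows, 10.9% held TTTATNG and 13.6% held TATAAA. Also searched on both strands were a direct repeat of AGGTCA with 1 base between the copies, the element of PPAR, and CAAAGTCCA, TGATAA and AGATAA, for HNF4 and GATA factors. Exact matches to them were in none of the 5 windows and in 0.0396%, 0.475%, 9.05% and 11.2% of all windows. Only exact matches were sought, so copies of an element with a changed base were not counted and may be present. A match describes these letters and does not show binding.

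The implied totals lay between 5268480 and 18591819 reads per library, of which 44.3% to 75.8% fell in annotated genes. At this depth, 1 read in a transcript of 2 kb was worth 0.0269 to 0.0949 RPKM, the unit of all levels given here (reads per kilobase of exon, scaled to library depth). The 2 crypt libraries of an origin stood apart. Enterocyte markers, 15 genes such as the peptidase Anpep and the keratin Krt20, summed to between 194 and 394 RPKM in crypt libraries numbered 1, and to between 1658 and 2697 in those numbered 2. They summed to between 403 and 827 in organoids, and to between 6604 and 8332 in villi. Every one of the 8 genes was higher in crypt library 2 than in library 1 at every origin, by a median log2 ratio of 3.01 in duodenum, 2.59 in jejunum and 2.21 in ileum. For Cd36 in ileum this was 4 reads against 3. Annotated genes took 44.3% to 52.3% of reads in crypt libraries numbered 1 and 60.1% to 67.6% in those numbered 2. The same ratio over all genes was not computed, so a shift shared by all genes is not separated here. How far the enterocyte content of a crypt library moved the genes was not tested, so differences of the 8 genes from crypts, and counts of the other gene lists, are given with both libraries and with each number alone. In these bulk samples, fewer cells of a type and less RNA per cell cannot be told apart.

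Villi had the highest mean level of 6 of the 8 genes at every origin and of Fabp1 and Cd36 at all but the ileum, and organoids split the set. Fold changes below are differences of log2(RPKM + 1), which understate changes of low genes, and come from limma over the 12 libraries with tissue and origin as terms. Of the 8 genes, 8 rose in villi against crypts at an adjusted p under 0.05, while 20.3% of the 11826 genes tested rose and 52.8% changed in either direction. Of the 8 genes, 2 rose and 3 fell in organoids against crypts, where 23.3% of all genes rose and 24% fell. In organoids against villi 6 fell and 0 rose, where 25.6% of all genes fell and 36% rose. The median log2 difference of the 8 genes was 2.81, -0.74 and -3.60 in these comparisons, beside -0.19, 0.00315 and 0.21 for all genes tested. Rescaling by TMM moved the all-gene median of villi against crypts to -0.03, and the share of called genes that were higher in villi from 38.5% to 50.9%. For organoids against villi the share higher in organoids went from 58.5% to 50.9%.

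**Figure D1:**
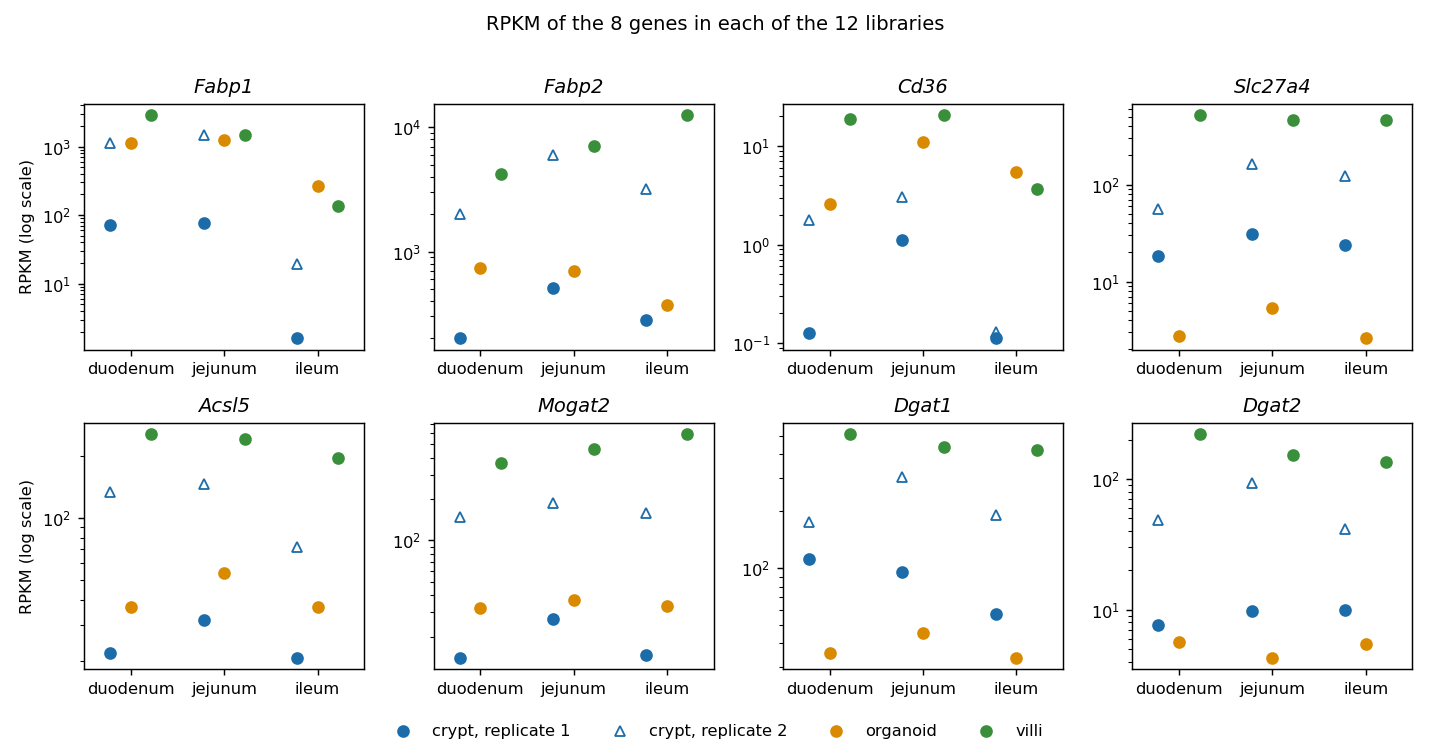
RPKM on a log axis of each gene in each of the 12 libraries, by origin; circles and open triangles in blue are crypt libraries numbered 1 and 2, orange is organoids and green is villi. Villi lie at the top in 6 of the panels at every origin, the blue symbols lie far apart, and organoids lie below all crypt libraries for Slc27a4, Dgat1 and Dgat2.

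The cytosolic carriers were the most abundant members. Fabp1 and Fabp2, the liver and intestinal fatty acid-binding proteins, together made up 61.1% to 94.2% of the summed RPKM of the 8 genes in a library. Fabp2 (chromosome 3, 122598309 to 122602423, forward strand, mm9) was the fourth most abundant transcript of the ileal villi. Fabp1 lies on chromosome 6, 71149881 to 71155016, forward strand.

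Fabp1 was at 72.9 and 1133 RPKM in duodenal, 75.7 and 1467 in jejunal, and 1.59 and 19.4 in ileal crypts. The lower ileal value rests on 7 reads (95% Poisson interval from 0.64 to 3.28 RPKM). It was at 1131, 1263 and 266 RPKM in organoids of duodenum, jejunum and ileum. In villi it was at 2899.7, 1449 and 137 RPKM. Duodenal and jejunal organoids lay between their crypt libraries, whereas ileal organoids were above both ileal crypt libraries and above ileal villi. Fabp1 rose in villi against crypts by 3.23 (SE 1.04, limma adjusted p = 0.0195), and jejunal villi were no higher than jejunal crypt library 2. It rose in organoids against crypts by 3.03 (SE 1.04, limma adjusted p = 0.0296). Organoids differed from villi by -0.20, with a 95% interval from -2.80 to 2.40 (limma adjusted p = 0.893).

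Both calls of Fabp1 rest on the low crypt libraries. With crypt libraries numbered 2 alone the difference was 1.37 for villi and 1.16 for organoids (limma adjusted p = 0.087 and 0.143), and with those numbered 1 alone it was 5.09 and 4.89 (5.59e-06 and 2.37e-05). The villus call was also lost without the duodenal or the ileal villi (limma adjusted p = 0.0927 and 0.0764). The organoid call was lost without crypt library 1 of duodenum or of jejunum (0.0512 and 0.0565 by limma) and without the jejunal or ileal organoids (0.0655 and 0.213).

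Fabp2 followed another course. It was at 199.5 and 2003 RPKM in duodenal, 512 and 6016 in jejunal, and 282 and 3215 in ileal crypts. Organoids had 736, 700.1 and 371 RPKM, from duodenum to ileum, between the 2 crypt libraries at each origin. Villi had 4183, 7034 and 12604 RPKM, above both crypt libraries of their own origin. Fabp2 rose in villi by 2.82 (SE 0.96, limma adjusted p = 0.0257), and fell by 3.64 in organoids against villi (limma adjusted p = 0.0121). Its difference between organoids and crypts was -0.82, with an interval from -2.90 to 1.26 (limma adjusted p = 0.503).

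The Fabp2 calls also depended on single libraries. The villus rise was 4.55 with crypt libraries numbered 1 alone (limma adjusted p = 1.74e-05). The call was lost with those numbered 2 alone (1.09, limma adjusted p = 0.122), without jejunal crypt library 1 (0.0557) and without any villus library (0.0655, 0.0526 and 0.136 from duodenum to ileum). The fall against villi was lost without the ileal organoids or the ileal villi (limma adjusted p = 0.0646 and 0.0612). Against crypt libraries numbered 2 alone Fabp2 fell by 2.55 in organoids (limma adjusted p = 0.00265), and against those numbered 1 alone the difference was 0.91 (0.151).

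The membrane proteins of uptake moved in opposite directions in culture. Cd36 (chromosome 5, 17287833 to 17341513, reverse strand) encodes a scavenger receptor that binds long-chain fatty acids at the cell surface. Slc27a4 (chromosome 2, 29658199 to 29673041, forward strand) encodes Fatp4, a fatty acid transport protein that also activates very long chains.

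Cd36 was the lowest of the 8 genes in every crypt library. Crypts had 0.126 and 1.79 RPKM in duodenum, 1.10 and 3.01 in jejunum, and 0.111 and 0.129 in ileum, where the ileal values rest on 3 and 4 reads and the lower duodenal one on 2 reads. Organoids had 2.57, 11.1 and 5.41 RPKM in duodenum, jejunum and ileum, and villi had 18.9, 20.7 and 3.64. Organoids exceeded both crypt libraries of their own origin, and duodenal organoids lay below the higher jejunal crypt library. Ileal villi were far below the other villi and below ileal organoids.

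Cd36 rose in villi against crypts by 2.81 (SE 0.41, limma adjusted p = 0.000116), and in organoids by 1.86 (SE 0.41, limma adjusted p = 0.0025). With crypt libraries numbered 1 alone these differences were 3.19 and 2.24 (limma adjusted p = 5.46e-05 and 0.000944), and with those numbered 2 alone 2.44 and 1.48 (0.0008 and 0.0154). As a low gene, Cd36 moved with the scale: its differences were 4.12 and 3.07 with a pseudocount of 0.1, and 4.39 and 2.87 with limma-voom on recovered reads. On both of these scales its villus rise was the largest of the 8 genes. Leaving out any 1 library kept both calls. Organoids differed from villi by -0.95 (95% interval from -1.97 to 0.06, limma adjusted p = 0.0942). That difference passed after TMM rescaling (-1.23, limma adjusted p = 0.0379), without the ileal organoids (-1.41, 0.034) and without the ileal villi (-1.44, 0.0268).

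Cd36 is also made by endothelium, macrophages and adipocytes, and markers of each were measured. The 7 endothelial markers summed to 1.15 to 1.77 RPKM in villi, 0.203 to 0.483 in organoids and 0.110 to 1.80 in crypts. Of 3 tested, Pecam1 and Plvap rose in villi against crypts (limma adjusted p = 0.0153 and 0.0146), and neither passed with crypt libraries numbered 1 alone. In organoids 0 of the 3 passed. Pecam1 and Vwf had reads in all 3 organoid libraries, whereas Cdh5 was at 0 in 8 of the 12 libraries and Kdr in 10, organoids included.

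The 5 macrophage markers matched did not move together. They summed to 4.64 to 10.8 RPKM in villi, 13.7 to 23.3 in organoids and 10.9 to 19.2 in crypts, mostly from Cd68 and Cd14. Of 4 tested in villi against crypts, Cd68 fell and Csf1r, the receptor of macrophage growth factor, rose (limma adjusted p = 8.89e-05 and 1.11e-05). Csf1r was at 0.788 to 1.59 RPKM in villi and at most 0.126 elsewhere, and Emr1 was at 0.0708 to 0.386 in villi and at most 0.0345 elsewhere. In organoids against crypts 1 of the 4 rose and 2 fell.

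The 6 adipocyte markers matched summed to 54.6 to 92.3 RPKM in villi, 1.43 to 2.47 in organoids and 4.73 to 13.2 in crypts. The lipase gene Lipe, also in the hydrolysis list below, made up most of these sums except in ileal villi. It alone was at 52.7, 60.8 and 51.7 RPKM in villi from duodenum to ileum, and at 4.34 to 13.2 in crypts. Both that were tested, Lipe and Fabp4, rose in villi, and Lipe fell in organoids. Lep was at 0 in all 12 libraries, and Adipoq and Fabp4 were at 0 in all 3 organoid libraries. Retn was at 0.048 RPKM in jejunal and 0.259 in ileal organoids, and Cfd at 0.084 in ileal organoids. In villi Adipoq was at 0.062, 0.507 and 3.08 RPKM from duodenum to ileum. Villi also held lymphocyte markers at 35.6 to 141 RPKM and smooth muscle markers at 28.8 to 90.6, whereas in the other libraries these sums were at most 1.64 and 9.46. The part of these cells in the levels of Cd36 and the other genes was not tested.

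Slc27a4 separated the tissues most widely. Crypts had 18.3 and 56.0 RPKM in duodenum, 31.1 and 162 in jejunum, and 23.6 and 122 in ileum. Organoids had 2.76, 5.31 and 2.59 RPKM, below every crypt library. Villi had 524, 467 and 462 RPKM, above every crypt library and nearly level along the intestine.

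Slc27a4 rose in villi by 3.25 (SE 0.57, limma adjusted p = 0.000462) and fell by 3.53 in organoids against crypts (SE 0.57, limma adjusted p = 0.00035). Against villi it fell by 6.78 in organoids (limma adjusted p = 4.87e-06), the largest difference of the 8 genes among these 3 comparisons. The difference was 4.29 or 2.21 with crypt libraries numbered 1 or 2 alone in villi and -2.49 or -4.57 in organoids. All 3 calls held with either number and without any 1 library. Beside the 15 enterocyte markers, whose differences between organoids and crypts ran from -2.93 to 4.06 with a median of -0.33, Slc27a4 was lower than all 15. Fabp1 and Cd36 were higher than 14 of the 15.

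**Figure D2:**
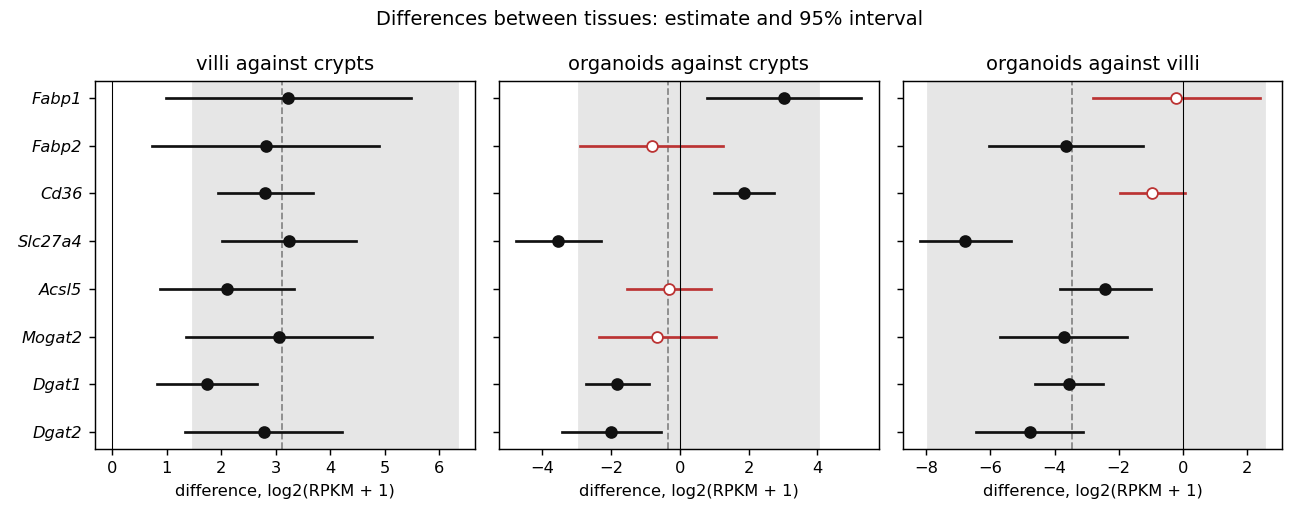
Difference of log2(RPKM + 1) for each gene in 3 comparisons of tissues, with the 95% interval from limma; filled black points passed an adjusted p of 0.05 and open red points did not. The grey band spans the 15 enterocyte markers and the dashed line is their median; in villi all 8 genes lie in the band, and in organoids against crypts Slc27a4 lies left of it at -3.53 while Fabp1 and Cd36 lie on its right side.

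In organoids the genes of activation and of the monoglyceride step lay between the crypt libraries, as Fabp2 did. Acsl5 (chromosome 19, 55327858 to 55371117, forward strand) encodes a long-chain acyl-CoA synthetase, which readies fatty acids for esterification. Mogat2 (chromosome 7, 106367593 to 106387112, reverse strand) encodes the acyltransferase that turns monoglyceride into diglyceride, the main route of triglyceride synthesis in the fed intestine.

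Acsl5 was at 22.0 and 133 RPKM in duodenal, 31.9 and 146 in jejunal, and 20.8 and 71.6 in ileal crypts. Organoids had 36.9, 53.9 and 36.9 RPKM and villi had 254, 241 and 195. Mogat2 was at 14.0 and 147.5 RPKM in duodenal, 26.8 and 186 in jejunal, and 14.8 and 157 in ileal crypts. For both genes organoids lay between the crypt libraries at each origin and villi lay above every crypt library. Mogat2 had 32.1, 37.0 and 33.5 RPKM in organoids and 365, 461 and 589 in villi, from duodenum to ileum.

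Acsl5 rose in villi by 2.10 (SE 0.57, limma adjusted p = 0.00771) and Mogat2 by 3.07 (SE 0.79, limma adjusted p = 0.00578). With crypt libraries numbered 1 alone these rises were 3.17 and 4.63, and with those numbered 2 alone 1.03 and 1.5003, and both passed each time. Both fell in organoids against villi, with differences of -2.42 and -3.72 (limma adjusted p = 0.00616 and 0.00325). Between organoids and crypts neither passed, with differences of -0.32 and -0.66 (intervals from -1.55 to 0.91 and from -2.36 to 1.05, limma adjusted p = 0.666 and 0.517). With the crypt replicate number as a block Mogat2 passed (limma adjusted p = 0.0173), so that 6 of the 8 genes did, beside 55.8% of all genes. Organoids have no such number, so this fit leaves the gap between crypt numbers out of the error. The pass is therefore not read as a fall. The crypt number set the direction for Acsl5 and Mogat2. Against crypt libraries numbered 1 alone organoids were higher, by 0.75 for Acsl5 and 0.91 for Mogat2 (limma adjusted p = 0.014 and 0.0112), and against those numbered 2 alone they were lower, at -1.39 and -2.22 (0.000943 and 3.9e-05).

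The diglyceride acyltransferases, which close the pathway by making triglyceride, fell in organoids. Dgat1 (chromosome 15, 76332444 to 76342247, reverse strand) and Dgat2 (chromosome 7, 106302172 to 106331222, reverse strand) encode unrelated enzymes for the same step. Dgat2 lies 36371 bases from Mogat2, a member of its own enzyme family, with no other gene of the tables between them.

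Dgat1 was at 112 and 174.5 RPKM in duodenal, 95.8 and 302 in jejunal, and 57.5 and 191 in ileal crypts. Organoids had 35.4, 45.3 and 33.5 RPKM, below every crypt library, and villi had 509.8, 439.8 and 420.3, above every crypt library. Dgat1 rose in villi by 1.74 (SE 0.42, limma adjusted p = 0.00402), the smallest rise of the 8 genes. It fell by 1.82 in organoids against crypts (SE 0.42, limma adjusted p = 0.00364), and the difference from villi was -3.56 (4.82e-05). The difference was 2.41 or 1.07 with crypt libraries numbered 1 or 2 alone in villi and -1.15 or -2.48 in organoids. All 3 calls held with either number and without any 1 library.

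Dgat2 was at 7.59 and 48.9 RPKM in duodenal, 9.68 and 92.2 in jejunal, and 9.98 and 41.4 in ileal crypts. Organoids had 5.66, 4.25 and 5.45 RPKM, again below every crypt library, and villi had 219, 153 and 135, above every crypt library. Dgat2 rose in villi by 2.78 (SE 0.67, limma adjusted p = 0.00374), and fell by 1.99 in organoids against crypts (SE 0.67, limma adjusted p = 0.0264). Against villi it differed by -4.77 (limma adjusted p = 0.000166). The villus rise was 4.05 or 1.51 with crypt libraries numbered 1 or 2 alone, and passed with both. The organoid call against crypts held with crypt libraries of either number alone, at -0.72 and -3.26 (limma adjusted p = 0.024 and 1.31e-05). It was lost without duodenal crypt library 2 (limma adjusted p = 0.0548) and without the duodenal, jejunal or ileal organoids (0.0777, 0.125 and 0.0753).

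**Figure D3:**
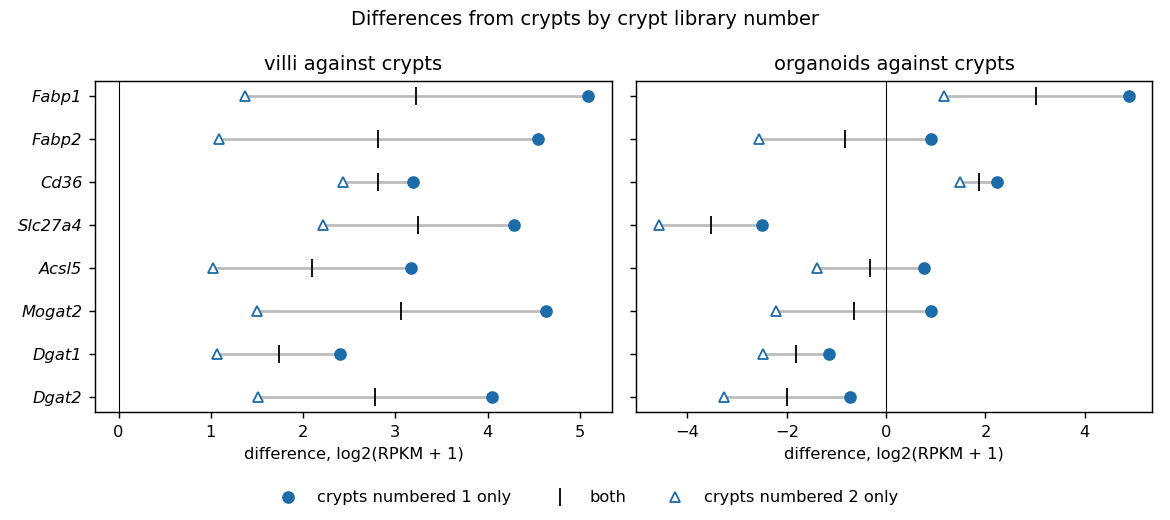
Difference of log2(RPKM + 1) of villi and of organoids from crypts when only crypt libraries numbered 1 (filled circles) or only those numbered 2 (open triangles) are used; the bar marks the value with both. In villi all symbols lie above 0, whereas in organoids Fabp2, Acsl5 and Mogat2 change sign, for Mogat2 from 0.91 to -2.22.

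Along the length of the intestine Fabp1 had the largest difference of the 8 genes. The fit over all tissues gives crypts more weight, with 2 libraries per origin. In it 0 of the 8 genes passed in ileum against duodenum by limma, and 0.609% of all genes passed. Of the 8 genes 1 had an unadjusted p under 0.05, beside 8.37% of all genes. Fabp1 was lower in ileum by a log2 difference of -4.28 (SE 1.04, limma adjusted p = 0.0932). With the crypt replicate number as a block it fell (SE 0.50, limma adjusted p = 0.000469), where 0.685% of all genes fell. It also passed with crypt libraries numbered 1 alone (-3.77, limma adjusted p = 0.00422), with those numbered 2 alone (-4.09, 0.00706) and without jejunal crypt library 2 (-4.28, 0.0395). The other 7 genes differed by -0.64 for Cd36 to 0.45 for Fabp2, and none of them passed with the block.

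Against jejunum, 0 of the 8 genes passed in ileum by limma, while 0.0423% of all genes passed. Of the 8 genes 2 had an unadjusted p under 0.05, beside 4.38% of all genes. Fabp1 differed by -4.17 (limma adjusted p = 0.382) and fell with the block (0.00405), where 0.11% of all genes fell. It also passed with crypt libraries numbered 1 alone (-3.51, limma adjusted p = 0.0327), and not with those numbered 2 alone (-3.93, 0.0656). Cd36 was lower in ileum by -1.47 and passed in neither fit (limma adjusted p = 0.46, and 0.114 with the block). Between jejunum and duodenum 0 of the 8 passed in limma, as did 0% of all genes, and 0 of the 8 had an unadjusted p under 0.05, beside 2.9% of all genes. The largest difference was 0.90 for Fabp2 (interval from -1.17 to 2.98).

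Within each tissue Fabp1 was lowest in ileum. The mean of ileal crypts was 57.5-fold below that of duodenal crypts (10.49 ± 12.6 against 603 ± 749.6 RPKM, SD, n = 2), with every ileal crypt library below every duodenal one. In villi the ratio was 21.1-fold and in organoids 4.25-fold, from 1 library each. In crypts alone Fabp1 differed by -5.32 between ileum and duodenum (SE 1.80, limma adjusted p = 1) and fell with the block (SE 0.36, limma adjusted p = 0.00687). Of all genes, 0.036% passed there without the block, and with it 0.108% fell. Against jejunal crypts the difference was -5.53 (limma adjusted p = 1, and 0.0117 with the block), beside 0.027% of all genes called without it and 0.045% lower with it. In both crypt comparisons 0 of the 8 genes passed without the block, with 1 and 2 at an unadjusted p under 0.05, beside 4.09% and 1.74% of all genes.

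The smaller ratio in organoids was not shown to differ from that of crypts. The ileum-duodenum difference of Fabp1 was 3.23 higher in organoids than in crypts, with an interval from -5.42 to 11.89 (limma adjusted p = 1, and 0.891 with the block). For villi it was 0.93 higher (interval from -7.73 to 9.58, limma adjusted p = 1, and 0.878 with the block). Of the 8 genes 0 passed in either test by limma and 0 had an unadjusted p under 0.05. Of all 12741 genes 0% passed, and 333 (2.61%) and 462 (3.63%) had an unadjusted p under 0.05. The single organoid and villus libraries are assumed there to vary like crypt libraries.

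The order of the other genes along the intestine rests on single libraries outside crypts. In villi Fabp2 and Mogat2 went up from duodenum to ileum, 3.01-fold and 1.62-fold, whereas Dgat2, Acsl5 and Dgat1 went down, by ratios of 1.63, 1.30 and 1.21 from duodenum to ileum. In organoids Fabp2 was 1.99-fold lower in ileum than in duodenum, and Mogat2 and Acsl5 were at ratios of 1.04 and 0.999. Each of these values is a ratio of 1 library to another. Cd36 was highest in jejunum in each of the 3 tissues, with a ratio to duodenum of 1.10 in villi and 4.30 in organoids.

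Ratios within a library compare genes per length without the scale of the library. Fabp1 was below Fabp2 in all crypt and villus libraries. The ratio of Fabp1 to Fabp2 was 0.365 and 0.566 in duodenal, 0.148 and 0.244 in jejunal, and 0.00564 and 0.00603 in ileal crypts. The value of 0.00564 rests on 7 Fabp1 reads and is imprecise. In villi it was 0.693, 0.206 and 0.0109, so that both fresh tissues gave the same order along the intestine, and the 2 crypt libraries of an origin lay close together although their Fabp2 levels differed 10.04-fold to 11.7-fold. Organoids had ratios of 1.54, 1.80 and 0.717, each above both fresh tissues of its origin.

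Dgat1 exceeded Dgat2 in every library. The ratio of Dgat1 to Dgat2 was 2.33 to 3.12 in villi and 6.15 to 10.7 in organoids. In crypts it was 14.7 and 3.57 in duodenum, 9.90 and 3.27 in jejunum, and 5.76 and 4.61 in ileum, lower in library 2 each time. Mogat2 relative to Dgat1 was at 0.125 to 0.279 in crypt libraries numbered 1, 0.617 to 0.845 in those numbered 2, 0.817 to 1.001 in organoids and 0.715 to 1.40 in villi.

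**Figure D4:**
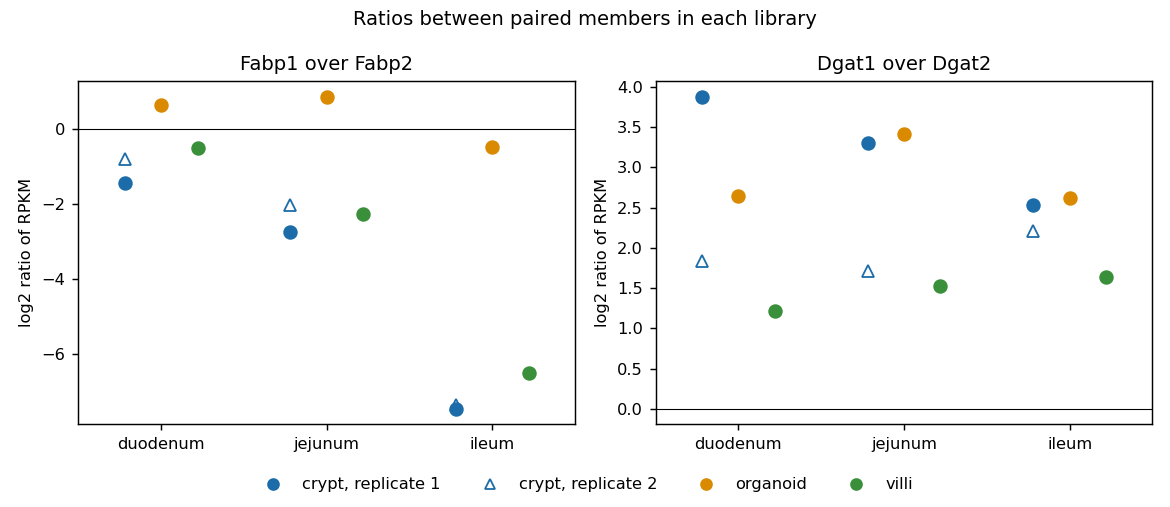
Log2 ratio of RPKM within each library for Fabp1 over Fabp2 and Dgat1 over Dgat2, by origin; blue circles and open triangles are crypt libraries 1 and 2, orange is organoids and green is villi. The Fabp1 ratio falls from duodenum to ileum in crypts and villi, to -7.47 in ileal crypts (from 7 Fabp1 reads), and less in organoids. The Dgat1 ratio is lowest in villi.

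Over the 12 libraries, correlations of log2(RPKM + 1) were 0.9752 between Fabp2 and Mogat2, 0.9804 between Slc27a4 and Dgat1 and 0.9717 between Acsl5 and Mogat2. Fabp1 correlated most with Cd36, at 0.778, and least with Slc27a4, at 0.138. After removal of tissue means the latter was 0.464. Libraries of a tissue share their preparation and crypt libraries their enterocyte content, so these values describe the 12 libraries only.

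Genes with the most similar pattern were sought among 6395 genes with a mean of at least 5 RPKM. Fabp1 was closest to Nr1i3, the nuclear receptor CAR (0.969), then to Gstm6 and Ugt2a3. Nr1i3 was at 2.61 and 3.79 RPKM in ileal crypts, 15.6 in ileal organoids and 10.3 in ileal villi, the same order as Fabp1. Cd36 was closest to Dnase1 (0.956), Rab30 and Tmem195. Slc27a4 was closest to Ptprh, a receptor phosphatase (0.997), Furin and Slc6a8, and Dgat1 to Hes2, Crat and Ptprh. Fabp2 had Mogat2, Slc7a7 and Pgpep1 nearest, and Mogat2 had Gnpda1, Pklr and Tm6sf2. Acsl5 had Cyb5b, 1700019G17Rik and Mfsd11, and Dgat2 had 1810055G02Rik, Vwa1 and Tmem19.

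Other genes of fat handling are given by their lists, without the 8. Against crypts, counts with the block leave the gap between crypt numbers out of the error. The crypt libraries stood apart here too. The 10 chylomicron genes summed to 724 to 1662 RPKM in crypt libraries numbered 1, 6144 to 18758 in those numbered 2, 2199 to 3416 in organoids and 35848 to 110640 in villi, in the same order as the enterocyte markers given above.

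In villi against crypts 9 of 9 tested chylomicron genes rose, with a median of 3.60, where 20.3% of all genes rose. With crypt libraries numbered 1 alone 9 rose with a median of 4.70, and with those numbered 2 alone 8 rose with a median of 2.33. Among them were Apob and Mttp, the scaffold and the lipid loader of the particle, which rose by 3.60 and 3.45 (limma adjusted p = 0.000346 and 0.00058), and by 2.4995 and 2.31 against number 2 alone. Of 17 further genes of glycerolipid synthesis and droplets 7 rose and 4 fell (median 0.55). The counts were 9 and 4 with the replicate block, 10 and 4 with crypt number 1 and 5 and 3 with number 2. Cidec, a droplet protein, rose by 3.71 and Lpin1, a phosphatidate phosphatase, fell by 1.57 (limma adjusted p = 0.0001 and 0.000111), and both passed with either number alone.

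Of 10 genes of triglyceride and monoglyceride hydrolysis 4 rose and 2 fell in villi (median 1.05). The counts were 6 and 2 with the block, 5 and 3 with number 1 and 5 and 2 with number 2. Of 13 further genes of fatty acid binding, transport and activation 3 rose and 5 fell (-0.07), or 4 and 5 with the block, 4 and 4 with number 1 and 3 and 4 with number 2. Of 22 nuclear receptors and factors of lipid genes 7 rose and 4 fell (0.08), or 7 and 5 with the block, 8 and 4 with number 1 and 6 and 4 with number 2. Of the 15 enterocyte markers 13 rose, or 15 with the block, 15 with number 1 and 12 with number 2. The median of all genes in this comparison was -0.19. Of all 11826 genes tested 20.3% rose and 52.8% changed in either direction, and 7039 genes changed with the block. All-gene shares for 1 crypt number alone are not given here.

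In organoids against crypts the direction of the chylomicron list followed the crypt number. Of all genes 23.3% rose and 24% fell there, and 55.8% changed in either direction with the block. Of the 9 chylomicron genes 2 rose and 0 fell, with or without the block (median 0.00319, beside 0.00315 for all genes). With number 1 alone 6 rose and 0 fell (median 1.56), and with number 2 alone 2 rose and 3 fell (-1.08). The enterocyte markers did likewise, with 1 of 15 higher and 3 lower, 2 and 6 with the block, 7 and 3 with number 1 and 1 and 12 with number 2. Apob rose by 2.005 (limma adjusted p = 0.0158), and by 3.10 or 0.91 with number 1 or 2 alone.

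Receptors and factors were mostly lower in organoids, where 2 of 22 rose and 14 fell (median -1.21), beside 23.3% and 24% of all genes. The counts were 2 and 15 with the block, 3 and 12 with number 1 and 1 and 16 with number 2. Ppargc1b, a coactivator of mitochondrial genes, fell by 2.93 (limma adjusted p = 1.53e-05) and passed with either number alone. For binding and transport 5 rose and 1 fell (0.99), or 7 and 2 with the block, 7 and 1 with number 1 and 6 and 2 with number 2. Synthesis and droplet genes had 3 that rose and 5 that fell (-0.48), or 5 and 6 with the block, 6 and 5 with number 1 and 1 and 8 with number 2. Genes of triglyceride and monoglyceride hydrolysis had 3 and 3 (0.01). The counts were 4 and 3 with the block, 4 and 3 with number 1 and 4 and 5 with number 2.

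In ileum against duodenum over all tissues 4 of the 71 tested genes of these lists changed, 2 in each direction, and 8 did with the replicate block, 4 in each direction. Scarb1, a lipid receptor, and Aadac, an esterase, fell, at -2.46 and -1.91, while Agpat4, an acyltransferase, and Nr1h4, the bile acid receptor, rose by 1.84 each (limma adjusted p = 0.0103, 0.0462, 0.00645 and 0.0385). Of all genes 0.609% passed without the block and 2.55% with it. Apoa4, a chylomicron apolipoprotein, differed by -3.19, with limma adjusted p = 0.315 and 0.0103 with the block.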

How the data were processed

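Poly(A) RNA of crypts, villi and organoids of mouse small intestine was read as 50-bp SOLiD reads, per the labels' protocols. The submitters' processing notes name BWA and the build mm9. Versions, gene models, read counting and strand were not given in the sources used here. Values were deposited as RPKM, per the file headers, with 1 value for a transcript in a library. Positions are printed as deposited, and their numbering (from 0 or from 1) was not stated.

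The tables hold 21247 transcripts and 19012 symbols, and the longest transcript was kept per symbol. RPKM values were multiples of 1 read, and at least 99.9535% per library came out whole within 0.02 read, which gave the totals. Precision follows read number, from 2 reads for Cd36 in a crypt library to 98519 for Fabp2 in ileal villi.

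Tests used limma 3.58.1 in R 4.3.3 on log2(RPKM + 1), letting the variance depend on the mean, two-sided, with Benjamini-Hochberg adjustment over all genes tested and a threshold of 0.05. Kept were genes whose RPKM reached what 10 reads give in a library of median depth, in as many libraries as the smallest group has, with 15 such reads in all. The filter left 11826 genes for tissue and origin comparisons (7 residual degrees of freedom), 11123 for crypts (3) and 12741 for differences between tissues (3). All 8 genes were tested each time, Cd36 in crypts only through libraries where it is higher. With 1 villus and 1 organoid library at each origin, the 3 origins stood in for replicates, and a preparation shared within a tissue cannot be told apart from it. The code was tested on simulated data.

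The labels number crypt libraries 1 and 2, and equal numbers deviated together, with correlations over 11123 genes of 0.421 for duodenum and jejunum, 0.508 for duodenum and ileum and 0.792 for jejunum and ileum. The number was therefore taken as pairing the crypt libraries, and blocked values are given where they change a call. The block is coded for crypts alone, so it changes the errors and leaves the estimates. Villi and organoids are paired with no crypt number. Where they are compared with crypts, blocked errors leave out the gap between crypt numbers and are too small for that difference.

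The 8 genes and all lists were chosen with earlier results of these data known. Named genes are the 8, the up to 4 members of each list with the smallest p among those past the threshold in villi against crypts or ileum against duodenum, the 2 most abundant markers per cell type, and the 3 nearest patterns per gene. Not all of these are printed. Outside this rule, Adipoq, Lep, Cdh5 and Kdr were named for their role as defining markers, and Csf1r, Emr1, Vwf, Retn and Cfd beside them. Promoters are RefSeq windows of GRCm38.p6.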

Additional observations from a re-analysis of the deposited data

How the results depend on the processing

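Alternatives were a pseudocount of 0.1, no filter on low values, TMM rescaling, the transcript with the highest mean, the replicate block, leaving out each library and crypt libraries of 1 number alone. Limma-voom on the recovered reads, and the crypt number alone for organoids against villi and for origins and gene lists, were chosen after seeing the data. A planned quasi-likelihood count test on the recovered reads was not run, and limma-voom on the same reads was used in its place. In organoids against crypts 5 genes passed, 3 without the filter and 3 to 5 with 1 library left out. With crypt libraries numbered 1 alone Fabp2, Acsl5 and Mogat2 reversed to 0.91, 0.75 and 0.91, and the difference of Acsl5 ran from -0.63 to 0.0050 with 1 library left out. Without the filter the calls of Fabp1 and Dgat2 were lost there (limma adjusted p = 0.081 and 0.0716), as were those of Fabp1 and Fabp2 in villi (0.0574 and 0.0708), where 8 passed and 6 to 8 with 1 library left out. Fabp1 in organoids against villi ran from -1.12 to 0.34, and its ileum-duodenum difference in villi minus crypts from -1.04 to 2.90. In ileum against duodenum 0 genes passed, and 1, Fabp1, with the replicate block, with either crypt number alone, and in 0 to 1 with 1 library left out. In ileum against jejunum 1 passed with the block and 1 with crypt libraries numbered 1. In ileal against duodenal and against jejunal crypts 1 passed with the block in each. With the block, pairing crypt libraries by number, calls other than these and Mogat2 in organoids did not change. For all genes, 72 passed in ileum against duodenum, 301 with the block, 139 with limma-voom, 113 with the pseudocount of 0.1, 17 without the filter and 34 to 94 with 1 library left out. In ileum against jejunum 5 passed, 32 with the block, 9 with the pseudocount and 0 without the filter. For ileal against duodenal crypts 4 became 37, 0, 1 and 0 with the block, limma-voom, the pseudocount and no filter, for ileal against jejunal crypts 3 became 10, 0, 0 and 0, and for jejunum against duodenum 0 became 8 (3 in crypts) with the block. Without the filter 364 and 500 genes passed for the ileum-duodenum difference in organoids and villi minus crypts, where 0 passed otherwise. The cause was not tested. Depth limits Cd36 in crypts, with 2 to 4 reads in 3 libraries, and Fabp1 in ileal crypt library 1, with 7 reads.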
